A study of Homo sapiens with 2 samples.

Results

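The sites described here are 484 strong intergenic CUT&Tag sites that lay near, but not at, protein-coding genes in the siNEG library. They were chosen by siNEG strength and position: a deposited −log10 q-value of 10 or more, and a summit outside every protein-coding gene, more than 1 kb and at most 50 kb from the nearest protein-coding gene end. Summits within 1 kb of an end of a long noncoding RNA (lncRNA) gene were left out, which removed 110 of 594 intervals. The 484 were 2.97% of the 16274 siNEG intervals on chromosomes 1 to 22 and X, and 10.7% of the 4539 with a −log10 q-value of 10 or more. CUT&Tag uses a transposase tethered to an antibody to cut and tag DNA where the antibody's target sits. The target was EWS-FLI and the cells were TC32, a cell line established from Ewing sarcoma, with 1 library from cells treated with siEWS-FLI and 1 from cells treated with siNEG, a name that the labels do not spell out. With 1 library in each group no difference between the treatments has a replicate check. The intervals printed here cover the counting of reads or the number of sites only, not the spread between libraries. PCR copies were not told apart by molecular identifiers, so the read-count intervals may be too narrow.

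EWS-FLI joins part of EWSR1 to the DNA-binding domain of FLI1, an ETS-family transcription factor. ETS proteins recognise a GGAA core. The fusion is known for binding runs of repeated GGAA away from promoters, where it opens chromatin and switches on genes such as NR0B1 and CAV1, as well as single ETS sites at promoters. Intergenic sites near genes are therefore the class in which its best known distal elements fall.

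The sequence under most of these sites was not used here, as no genome was at hand. For 3 of them a stretch of sequence was given by the RefSeq table of gene starts (GRCh38.p14). These 3 reached into its window of 300 bases at the start of an lncRNA transcript that begins inside its gene. The stretches are shown because they place those sites at or near transcript starts that a rule on gene ends does not see. Each is the part of the site that lies within the window of 300 bases at the start, on the plus strand, 5′ to 3′, with every GGAA or its reverse complement TTCC in capitals:
MORN3 site, chr12:121686894-121687184: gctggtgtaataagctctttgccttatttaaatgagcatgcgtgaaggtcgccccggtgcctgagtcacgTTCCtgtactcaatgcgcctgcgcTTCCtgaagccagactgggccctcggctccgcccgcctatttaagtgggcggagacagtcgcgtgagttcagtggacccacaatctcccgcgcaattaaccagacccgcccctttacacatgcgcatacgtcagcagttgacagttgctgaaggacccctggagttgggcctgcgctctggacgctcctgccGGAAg
ANKRD9 site, chr14:102524599-102524869: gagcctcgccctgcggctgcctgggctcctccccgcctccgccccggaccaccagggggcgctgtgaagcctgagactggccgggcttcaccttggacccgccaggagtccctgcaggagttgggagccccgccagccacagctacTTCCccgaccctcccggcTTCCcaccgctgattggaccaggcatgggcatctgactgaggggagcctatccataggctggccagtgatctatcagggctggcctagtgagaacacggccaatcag
RAB11A site, chr15:65833136-65833347: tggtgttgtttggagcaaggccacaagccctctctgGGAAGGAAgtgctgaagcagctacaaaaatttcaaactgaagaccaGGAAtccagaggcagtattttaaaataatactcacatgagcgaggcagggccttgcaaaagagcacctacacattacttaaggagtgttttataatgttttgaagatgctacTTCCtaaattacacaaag

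The MORN3 summit lay 12 bases from a start of LOC105370034 and the ANKRD9 summit 33 bases from a start of LOC105370680. The RAB11A summit lay 343 bases from a start of LOC105370866, which was itself outside the site, and 93 bases outside the printed stretch. The stretches held 3, 2 and 4 copies of GGAA or TTCC, and the RAB11A stretch held a pair in tandem, GGAAGGAA. Among all 35116 RefSeq start windows trimmed to the same lengths, 95.1%, 94.1% and 89.4% held at least 1 copy on either strand, and 2.58% held GGAAGGAA or its reverse complement at the length of the RAB11A stretch. A match of this kind describes the letters only. The siNEG pileup, which counts the extended reads that cover the summit, was 30 reads at the MORN3 site, 30 at the ANKRD9 site and 17 at the RAB11A site. The RAB11A site alone of the 3 was called with siEWS-FLI, with 6 reads.

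The 484 sites had a median siNEG pileup of 22 reads, with quartiles of 16 and 34 and a range of 11 to 157. Pileups were computed from the deposited fold and p-value of each summit and are raw reads. There were 67 sites with 50 reads or more and 14 with 100 or more. Their median width was 460.5 bases, from 201 to 2000. The deposited fold over the local background, the peak caller's own value, had a median of 10.2 and ran from 5.81 to 25.3. Since strength chose the sites, these values are descriptions. Just inside the threshold lay sites near ZNF184 (17 reads, −log10 q-value 10.03), DISP1 (15 reads, 10.05) and PAX3 (15 reads, 10.05), and just outside it sites near CDC42, SPDYE1 and SCARB1, each with 13 reads and 9.97.

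The sites were spread over 459 nearest genes on all 23 chromosomes examined. Of these genes 435 were nearest to 1 site and 23 to 2. NBPF20, a member of a family of near-identical copies, was nearest to 3. The median distance to the nearest gene end was 13.9 kb, with quartiles of 5.81 and 24.8 kb. RefSeq gave a strand for the nearest gene of 368 sites. Of these, 220 lay upstream of the gene's start and 148 downstream of its end, so 59.8% were upstream (95% Wilson interval 54.7 to 64.7). Weaker siNEG intervals at the same kind of location, with a −log10 q-value under 10, lay upstream in 828 of 1551 cases, or 53.4%. The difference was 6.40 percentage points (95% Newcombe interval 0.743 to 11.9). From 10 to 25 kb, 84 sites were upstream and 42 downstream, whereas from 1 to 5 kb the numbers were 38 and 41. The histogram of position shows this tilt to the upstream side.

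**Figure D1:**
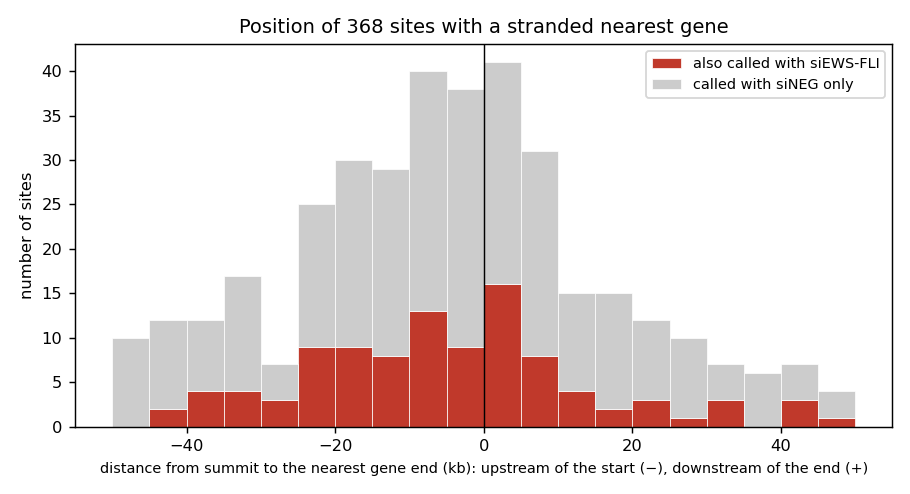
Number of sites by the distance of the summit from the nearest protein-coding gene end (kb), upstream of the start to the left and downstream of the end to the right, for the 368 sites whose nearest gene has a strand. The colours separate sites also called with siEWS-FLI from sites called with siNEG only; 220 sites lie on the upstream side and 148 on the downstream side.

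Most of these sites had no siEWS-FLI peak. Of the 484, 133 were overlapped by a siEWS-FLI interval by at least 1 base and 351 were not, a retained share of 27.5% (95% Wilson interval 23.7 to 31.6). The same share was 15.6% over all siNEG intervals and 41.0% over all with a −log10 q-value of 10 or more, so these sites were retained less often than strong siNEG intervals as a whole. Among 2060 weaker intervals at the same kind of location it was 5.10%. The share depends on the overlap rule: with a reciprocal overlap of 50% it was 14.3%, against 21.1% over all strong intervals, and counting only siEWS-FLI intervals with a −log10 q-value of 5 or more it was 15.5%, against 25%. A missing call means only that the signal stayed under the caller's threshold, not that a site was empty.

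Where both libraries had a peak, the siEWS-FLI peak was lower in 132 of 133 sites. Pileups in the shared sites had a median of 31 reads with siNEG and 8 with siEWS-FLI, and the median ratio, siEWS-FLI over siNEG, was 0.300 (95% interval of the median 0.278 to 0.340; quartiles 0.219 and 0.429). Over all shared strong intervals the median ratio was 0.239. The libraries differed in depth. Their library-wide backgrounds stood at a ratio of 0.687, which takes in mitochondrial reads, and 128 of the 133 ratios were below it. An estimate without a 10 kb mitochondrial window, which rests on an assumed genome size, was 0.562, and 124 were below that. Picking sites by siNEG strength lowers the ratio by itself, and its part was not tested. The deposited folds, each over its own local background, gave a median ratio of 0.612. The siEWS-FLI summit lay within 200 bases of the siNEG summit in 109 of the 133.

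The strongest shared site, on chromosome 17 (8156307 to 8157011), had 157 reads with siNEG (95% Poisson interval 133 to 184) and 27 with siEWS-FLI (17.8 to 39.3), 2.54 kb beyond the end of VAMP2, which encodes a vesicle fusion protein. The site nearest ZNF77, a zinc finger gene, had 141 reads (119 to 166) and 15 (8.40 to 24.7). A site 23.6 kb from TAS2R16, a bitter taste receptor gene, also had 141 reads with siNEG but only 5 with siEWS-FLI (1.62 to 11.7). Its ratio of 0.0355 (0.0113 to 0.0847) was the lowest of the shared sites. The siNEG pileups of these 3 sites were alike, while the counting intervals of the siEWS-FLI pileups at VAMP2 and TAS2R16 did not overlap. The site near GLIS2, a zinc finger gene of the GLI family, had 139 and 12 reads, and that near TESK1, a kinase gene, 127 and 14. The sites near ZNF778 (105 and 5 reads), MACROH2A2, which encodes a histone variant (99 and 5), and LPIN1, a phosphatidate phosphatase gene (60 and 4), had the next lowest ratios among sites with 50 or more siNEG reads, from 0.0476 to 0.0667.

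The 12 strongest sites without a siEWS-FLI peak had 76 to 130 siNEG reads, somewhat fewer than the 93 to 157 of the 12 strongest shared sites. The strongest, with 130 reads (109 to 154), lay upstream of CIROZ on chromosome 1 (10991998 to 10992590), within 1 kb of the pseudogene CFL1P6. A second site with 64 reads lay 6.02 kb from the same gene, and neither was called. CEACAM6, a cell adhesion glycoprotein gene of epithelia, likewise had a pair of uncalled sites, with 119 and 90 reads, 7.44 and 10.4 kb upstream. SYT6, a synaptotagmin gene, had 117 reads 43.8 kb away, PREX1, a Rac exchange factor gene, 107 reads 4.08 kb away, HMCN1, which encodes an extracellular matrix protein, 90 reads and CDK14, a cyclin-dependent kinase gene, 89. YPEL5 (85 reads), MED29, a Mediator subunit gene (79), SLCO5A1, a gene of the organic anion transporter family (79), SH2D1B (77) and PRKCH, a protein kinase C gene (76), complete the 12 strongest. At the caller's threshold and the siNEG local background, a siEWS-FLI pileup of up to 20 reads at the stronger CIROZ site and 24 at the CEACAM6 sites would have stayed uncalled. Over the 351 uncalled sites this limit had a median of 6 reads. The limit takes the siNEG background to hold in the siEWS-FLI library, which was not measured at uncalled sites, and it holds no siEWS-FLI reads. Worked out in the same way at retained sites, it was too high at some of them. The TAS2R16 site was called with 5 reads under a limit of 17, ZNF778 with 5 under 15 and LPIN1 with 4 under 10. Other called pileups were above it, such as 27 over 25 at VAMP2 and 32 over 10 at RNASE12. The true limit at uncalled sites may therefore be lower.

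**Figure D2:**
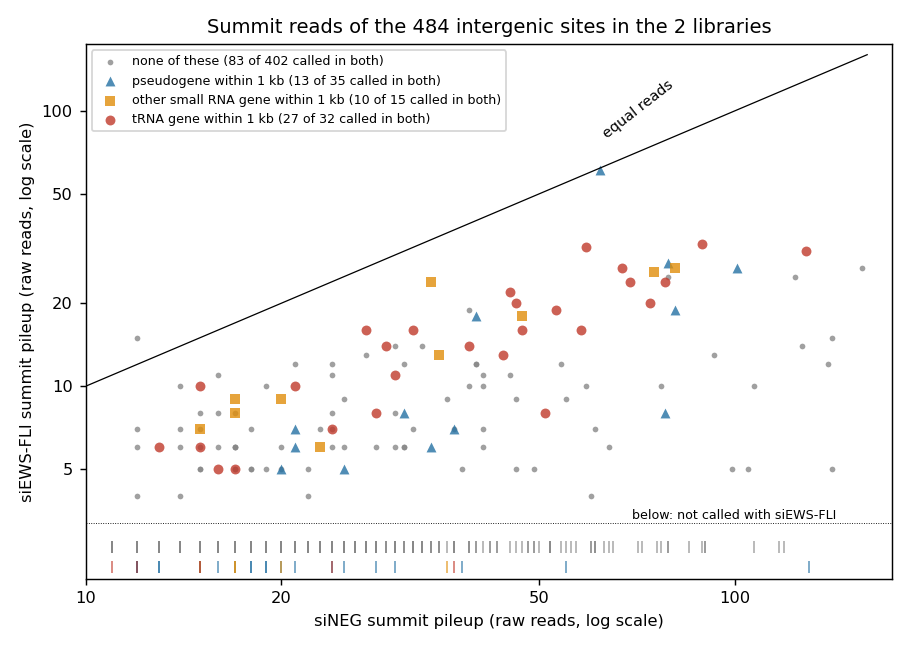
Summit pileup of each site in raw reads with siNEG (horizontal, log scale) and siEWS-FLI (vertical, log scale), with marks under the dotted line for the 351 sites not called with siEWS-FLI and a line at equal reads. Colours and shapes give the annotated gene within 1 kb of the summit. Of the 133 shared sites 1 lies above the line, and the sites near tRNA genes lie in the upper part of the cloud.

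Sites beside tRNA genes were retained far more often than the others. tRNA genes are very short, are transcribed by RNA polymerase III and occur in many near-identical copies, often in clusters. The gene rule looked at protein-coding and lncRNA genes only, so it let them in. This grouping by annotation was chosen after values of these sites had been seen and is given with no test. A tRNA gene lay within 1 kb of the summit of 32 sites, and 27 of them were retained (84.4%, 68.2 to 93.1). Another small RNA gene (spliceosomal snRNA, snoRNA, 5S rRNA or the 7SL RNA of the signal recognition particle) lay there in 15, of which 10 were retained (66.7%, 41.7 to 84.8). A pseudogene lay there in 35, of which 13 were retained (37.1%, 23.2 to 53.7). With none of these nearby, 83 of 401 were retained (20.7%, 17.0 to 24.9). The remaining site, which lies at the antisense gene TRAF3IP2-AS1, was not retained. Of the 32 sites, 26 lay in different stretches of 500 kb when 1 site was kept per stretch, and 21 of these were retained. With a reciprocal overlap of 50% the tRNA share was 40.6%, beside 14.3% over all 484 sites.

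The tRNA sites were stronger, with a median of 34.5 siNEG reads against 21 for sites near none of these genes, and strength itself goes with retention. They were also wider, with a median of 694.5 bases against 448. A wider interval meets a rule of 1 shared base more easily, and the part of width was not tested. At 20 to 49 siNEG reads, 17 of 21 sites near a tRNA or other small RNA gene were retained (81.0%, 60.0 to 92.3), against 46 of 190 of the rest (24.2%, 18.7 to 30.8). At 50 to 99 reads the numbers were 11 of 11 and 14 of 42, and at 11 to 19 reads 8 of 14 and 27 of 192. The intervals of the 2 groups do not overlap in any of these 3 classes. Weaker siNEG intervals at the same kind of location, which the rule did not take in, were retained in 5 of 38 cases near tRNA genes (13.2%, 5.75 to 27.3) and in 88 of 1865 near none of these genes (4.72%, 3.85 to 5.78). The median siNEG pileup of those weaker groups was 9.50 and 6 reads. Strong siNEG intervals near tRNA genes at other locations were retained in 34 of 48 cases (70.8%, 56.8 to 81.8), beside 1726 of 4055 for all strong intervals at other locations (42.6%, 41.1 to 44.1). The share near tRNA genes was thus also higher than that of all strong intervals at other locations, without allowance for strength.

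**Figure D3:**
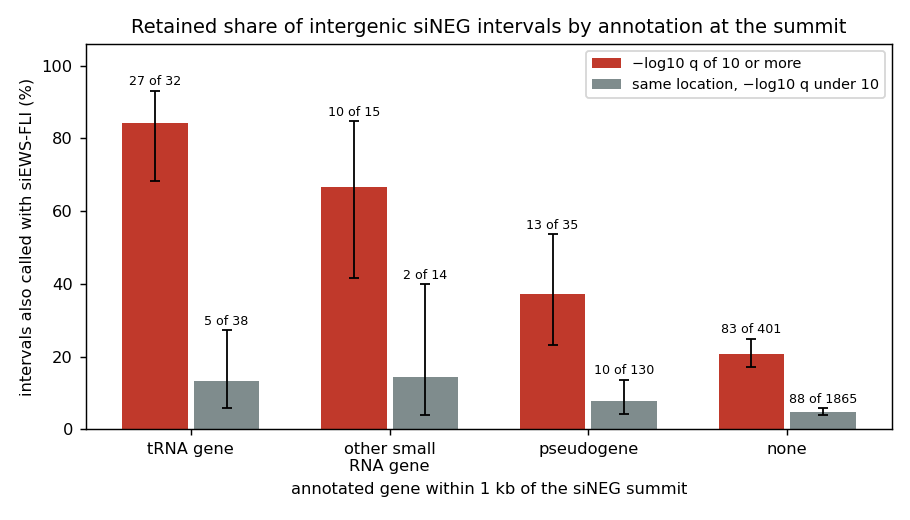
Share of intergenic siNEG intervals 1 to 50 kb from a gene that were also called with siEWS-FLI (%), by the annotated gene within 1 kb of the summit, for the strong sites and for weaker intervals at the same kind of location. Bars start at 0, error bars are 95% Wilson intervals over intervals, and the counts stand above them; 27 of 32 strong tRNA sites were retained and 83 of 401 with none of these genes nearby.

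Among shared sites the median ratio was also higher near tRNA genes. It was 0.359 (95% interval of the median 0.295 to 0.462) in the 27 shared tRNA sites. In the 83 shared sites near none of these genes it was 0.278 (0.244 to 0.304), and the intervals overlap. The summits compared can lie at different places. They lay 662 bases apart at the tRNA site near TRIM7 and 565 near ANG, but 41 near GNGT2 and 8 near BORCS6. Of all 133 shared sites, 109 had summits within 200 bases. The part of such shifts in the tRNA ratios was not tested. The tRNA sites had more siNEG reads, and more siNEG reads otherwise went with lower ratios. That trend is partly set by the calling: no shared site had fewer than 4 siEWS-FLI reads, so a weak siNEG site could not have a low ratio. The lowest ratio was 0.263 at 11 to 19 siNEG reads and 0.0355 at 100 or more. Among shared sites with 50 to 99 siNEG reads, the 11 near a tRNA or other small RNA gene had a median ratio of 0.347 and the 14 others 0.152. The site beside the glutamine tRNA gene TRQ-TTG1-1, nearest to GNGT2 on chromosome 17 (49192271 to 49193148), had 89 reads (71.5 to 110) and 33 (22.7 to 46.3). The site beside a proline and a threonine tRNA gene, nearest to RNASE12 on chromosome 14, had 59 (44.9 to 76.1) and 32 reads (21.9 to 45.2). The site nearest PLLP, beside a pair of leucine tRNA genes, had 67 and 27 reads. Of the tRNA sites that were not called, the strongest lay near ZNF213, with 37 siNEG reads. The limit from the siNEG local background was 12 reads there. How reads from near-identical tRNA copies were placed is not given in the sources used here, and its part in these values was not tested. Of 443 tRNA genes on these chromosomes, 192 had a siNEG summit and 122 a siEWS-FLI summit within 1 kb.

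Among the other small RNA genes, a pair of snRNA genes near CCDC200 on chromosome 17 had sites with 81 and 75 siNEG reads and 27 and 26 siEWS-FLI reads, ratios of 0.333 and 0.347. The U1 snRNA gene RNU1-2, nearest to CROCC, had 34 reads (23.5 to 47.5) and 24 (15.4 to 35.7), and RNU1-1 had 35 and 13. The 5S rRNA gene RNA5S6, near RHOU, had 47 and 18. The snoRNA gene SNORD3A had 36 reads with siNEG and was not called with siEWS-FLI, and the same held for its copy SNORD3B-1 with 17. The copies SNORD3B-2 and SNORD3D had 20 and 9 reads and 17 and 9 reads. Of the 5 uncalled sites in this group 3 lay at variant U1 genes near NBPF20 and NBPF15, while the variant genes RNVU1-30 (17 and 8 reads) and RNVU1-31 (15 and 7) were called in both libraries.

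Sites at pseudogenes were more mixed. Of the 35, 22 were not retained, among them the strongest, at CFL1P6 near CIROZ, and one with 55 siNEG reads at CYCSP26. The 13 retained ones had a median ratio of 0.258 (0.189 to 0.354), beside 0.278 for sites near none of these genes. Among those with 50 or more siNEG reads, sites at FAM86GP, FAM86C2P and FAM86C1P, related copies on chromosome 11, had 101, 79 and 81 siNEG reads and 27, 28 and 19 siEWS-FLI reads. The site at RNA5SP362, nearest to LLPH on chromosome 12, had 78 and 8 reads, for a lower ratio of 0.103. The site at ROCK1P1 on chromosome 18 (107980 to 108610) had a siNEG pileup of 62 reads (47.5 to 79.5), matched by 61 in the siEWS-FLI library (46.7 to 78.4), for a ratio of 0.984 (0.679 to 1.42). It was the only shared site with 50 or more siNEG reads whose ratio interval took in 1. A site within 1 kb of ORAI1, the calcium channel gene, had 28 siNEG reads and was not called with siEWS-FLI; the gene table used here lists ORAI1 as a transcribed pseudogene, which is why it counts as intergenic. CMAS, named after its value was seen, was nearest to the 1 site with more siEWS-FLI than siNEG reads, 15 against 12, and the interval of its ratio ran from 0.546 to 2.92.

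Neighbouring sites showed the mix on a small scale. There were 26 runs of sites with summits under 50 kb apart, which took in 56 sites. In 9 runs no site was retained, in 8 every site was, and in 9 some were. The longest run, 84.6 kb on chromosome 17, held 4 sites, all retained. From left to right they lay nearest to PER1, a circadian clock gene, with 51 and 8 reads, VAMP2 with 157 and 27, BORCS6 with 78 and 24, and CTC1, a telomere maintenance gene, with 129 and 31. A tRNA gene lay within 1 kb of each but the VAMP2 site, and the VAMP2 site had the most siNEG reads. On chromosome 19, by contrast, sites 1.49 kb across near MED29 and ZFP36, an mRNA decay factor gene, split: the stronger had 79 siNEG reads and was not called, and the weaker had 46 and 9.

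**Figure D4:**
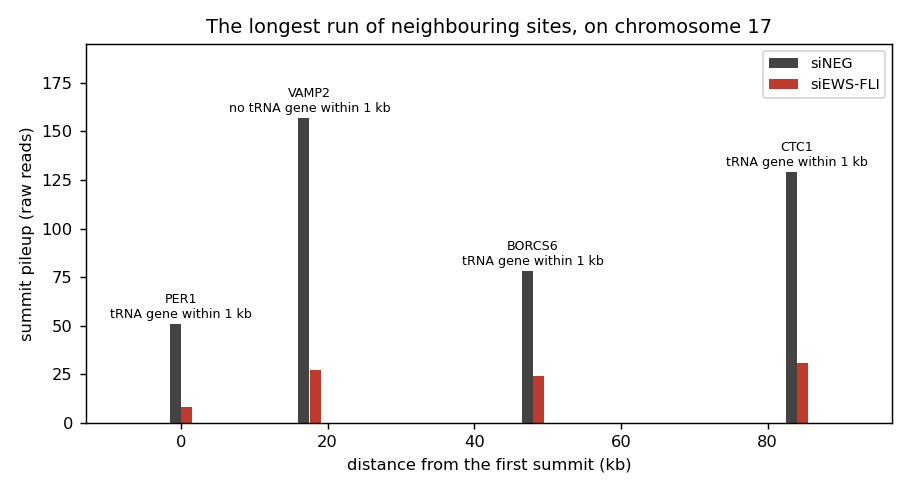
Summit pileup in raw reads (bars from 0) with siNEG and siEWS-FLI at the 4 sites of the chromosome 17 run, by distance from the first summit (kb), each with its nearest gene. All 4 were called in both libraries, and the siEWS-FLI bars stand at 8, 27, 24 and 31 reads.

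Genes known to be activated by EWS-FLI1 had none of their sites retained. Of a list of 36 such genes, 6 were nearest to 1 of the sites each: CCND1, KDSR, NR0B1, CAV1, ABHD6 and PAPPA. None of the 6 sites was called with siEWS-FLI, beside 27.5% retained over the 484. CCND1, the cyclin D1 gene, had 61 siNEG reads (46.7 to 78.4), KDSR, a sphingolipid synthesis gene, 49 (36.3 to 64.8), NR0B1, an orphan nuclear receptor gene, 39 (27.7 to 53.3), CAV1, the caveolin-1 gene, 27 (17.8 to 39.3), and ABHD6, a lipid hydrolase gene, and PAPPA, a metalloprotease gene, 16 each. At the siNEG local background, the pileup that would have stayed uncalled with siEWS-FLI at these sites was 12, 9, 9, 11, 6 and 4 reads. This limit was above the called pileup at some retained sites. Of these 6 genes, 5 are also on the list of 25 genes next to GGAA microsatellites, 24 of which were found in the gene table, and where no others were nearest to a site. The site that is nearest to a gene is not shown to act on it, and 6 sites allow no statement on the list.

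The gene lists that follow held 4 sites or fewer each, which allows no statement on any list beside the 27.5% retained over all 484. OTX2, a forebrain homeobox gene, had 63 siNEG reads (48.4 to 80.6) 15.8 kb upstream, SOX1 18, PAX3 15 and PAX7, from the Ewing core circuit list, 13, none of them called with siEWS-FLI. Of 4 sites near the 32 neural development genes, which include SYT6, none was retained. Among 21 ETS factor genes and EWSR1, ETV1 (34 reads) and ELF2 (24) had siNEG sites only, and ETV3 had 24 and 6. From the housekeeping list, B2M, which encodes beta-2-microglobulin, had a siNEG pileup of 61 (46.7 to 78.4) against 7 in the siEWS-FLI library (2.81 to 14.4), and ACTB, the beta-actin gene, had 17 and 6. Both of these sites were retained. SPRY1, a repressor of growth factor signalling, was the sole EWS-FLI1-repressed gene, with 16 reads and no siEWS-FLI peak, and EPCAM, an epithelial marker, had 14 and none. The Wnt ligand genes WNT11, at tRNA genes, and WNT2 had 27 and 16, and 12 and none. No site had a gene of the ATR-CHK1, platinum repair, hepatocyte or blood cell lists as its nearest.

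Compared with other strong siNEG intervals, these sites were retained less often than those at gene ends. At the ends of protein-coding genes, to within 1 kb, intervals were retained in 1319 of 2532 cases (52.1%, 50.1 to 54.0), a difference of 24.6 percentage points below them for the intergenic sites (95% Newcombe interval of the signed difference −28.9 to −20.0). Weighted to the siNEG strength of the intergenic sites the difference was −18.3 points, and with a reciprocal overlap of 50% it was −11.8. It held in each class of strength, at −8.72 points for 11 to 19 siNEG reads (−14.2 to −2.31), −22.9 for 20 to 49 (−29.4 to −15.8), −35.3 for 50 to 99 (−48.5 to −21.6) and −25.2 for 100 or more (−51.4 to −7.95). Intervals inside genes were retained in 270 of 973 cases (27.7%), a difference of −0.270 points whose interval, −5.04 to 4.69, took in 0. By strength it was 2.27 points at 11 to 19 reads, 0.0657 at 20 to 49, −16.2 at 50 to 99 (−32.2 to 0.792) and −15.2 at 100 or more (−42.5 to 8.24), and each of these intervals took in 0 as well. Intergenic intervals more than 50 kb from a gene were retained in 84 of 417 cases (20.1%), 7.34 points fewer (1.74 to 12.8). Within classes of strength that difference was not resolved: it was 5.99 points at 11 to 19 reads (−0.814 to 12.8), 7.57 at 20 to 49 (−1.29 to 16.1), −5.77 at 50 to 99 (−25.9 to 15.1) and 8.93 at 100 or more (−26.4 to 45.0), each with 0 inside its interval. At a siNEG −log10 q-value of 20 or more it was 6.53 points (−3.53 to 16.2). Among intervals called in both libraries the order differed. The median ratio, siEWS-FLI over siNEG, was 0.220 at gene ends (0.212 to 0.231) and 0.300 at the intergenic sites (0.278 to 0.340). It was 0.260 inside genes and 0.431 over 50 kb away. Shared gene-end intervals had more siNEG reads, with a median of 40 against 31. Gene ends also had the lower median ratio at 20 to 49 and 50 to 99 reads, but not at 11 to 19 or at 100 or more.

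**Figure D5:**
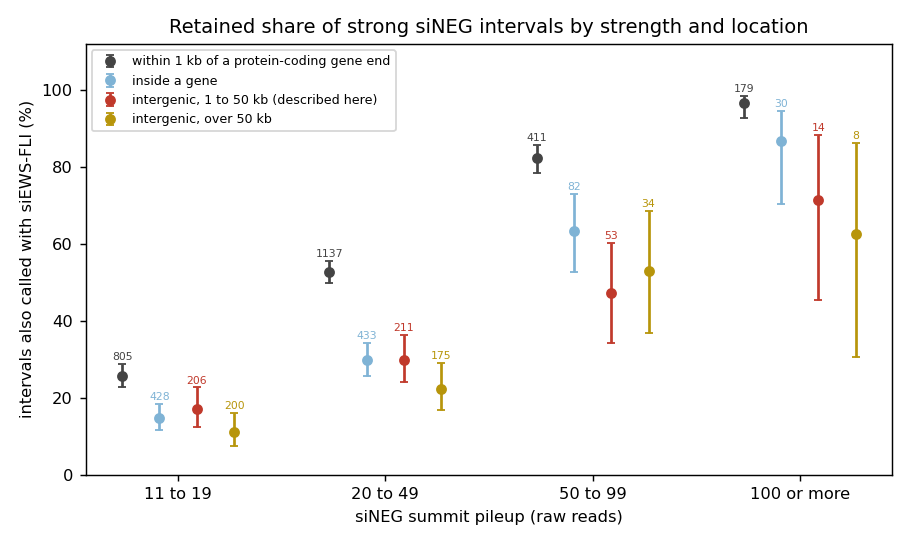
Share of strong siNEG intervals also called with siEWS-FLI (%), by siNEG summit pileup (raw reads) and location, with 95% Wilson intervals and the number of intervals above each. The gene-end points lie highest in every class, and at 50 to 99 reads the intergenic sites 1 to 50 kb from a gene stand at 47.2% against 82.5% at gene ends.

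The tRNA and small RNA sites changed these comparisons. Without them, in both sets, 96 of 437 sites were retained (22.0%, 18.3 to 26.1) and the median ratio of the shared ones was 0.268. The difference from gene ends was then −29.7 points and that from intervals inside genes −5.44 (−10.1 to −0.503). The difference from sites over 50 kb away fell to 1.87 points, with an interval of −3.65 to 7.34 that took in 0. In a separate setting, with small RNA sites kept, a reciprocal overlap of 50% gave 0.347 points. Distance itself went with small differences. The retained share was 31.7% (23.6 to 41.2) at 1 to 5 kb, 27.5% (19.4 to 37.4) at 5 to 10 kb, 27.5% (21.3 to 34.6) at 10 to 25 kb and 23.7% (17.0 to 32.2) at 25 to 50 kb, with intervals that overlap. It was 27.7% both upstream and downstream of the nearest gene. Sites inside an lncRNA gene were retained in 15 of 75 cases (20.0%, 12.5 to 30.4) and the others in 118 of 409 (28.9%, 24.7 to 33.4).

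For 164 of the 484 sites the nearest gene also had a siNEG interval within 1 kb of an end, of any strength. In 17 of these pairs both intervals had a siEWS-FLI overlap and in 85 neither did. In 32 only the intergenic site did, and in 30 only the gene end did. Most sites and most gene ends in these pairs were uncalled. Many pairs would therefore go the same way even if the calls at site and gene end were unrelated. Whether the calls at site and gene end are related was not tested. The intergenic site had more siNEG reads in 126 pairs, the gene end in 37 and 1 was a tie, which the choice of strong sites favours. At ACTB the gene end had 158 siNEG reads and no siEWS-FLI peak, while the intergenic site with 17 reads was called with 6. At YPEL5 it was the reverse, with 85 siNEG reads and no call at the intergenic site and 27 and 5 reads at the gene end. At B2M the gene end had 10 siNEG reads and the intergenic site 61, and only the latter was called with siEWS-FLI. A gene nearest to more than 1 site enters more than 1 pair.

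Seen from the siEWS-FLI library, few strong intervals lay at this kind of location. It had 999 intervals there, with a median of 4 reads and at most 61, and 29 of them had a −log10 q-value of 10 or more. Of these 29, 27 overlapped 1 of the 484 sites and the other 2 overlapped other siNEG intervals. A tRNA gene lay within 1 kb of 8 of the 29 and another small RNA gene of 4. Without a small RNA gene nearby, the strongest were a pair at ROCK1P1 with 61 and 40 reads, followed by FAM86C2P with 28 and then FAM86GP and the VAMP2 site with 27 each.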

How the data were processed

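The submitters' processing notes name MACS2 2.2.9.1, Bowtie2 2.4.5, Trim Galore 0.6.6 and the hg38 build, without roles. Whether a control library was used, and how duplicates and multiply mapping reads were treated, is not given in the sources used here. The 2 deposited lists each cover 1 library and hold intervals, a linear fold ratio over local background, and −log10 p-values and −log10 q-values. The deposited display score was not used.

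Lines with the same interval were merged, keeping the strongest summit. The summit pileup was taken as the whole number of reads that gives both the deposited Poisson p-value and the deposited fold, with 1 added to pileup and to background, and was found for 100% of intervals in each list (tolerance 0.001 in log10 p, growing in proportion above 10), and the step was tested on simulated data. Library backgrounds were 0.348 and 0.239 reads per base, with siNEG and siEWS-FLI. Assuming 2700000000 bases and reads extended to 200, library totals come to about 4702761 and 3229661. Genes and strands came from RefSeq GRCh38.p14, on the coordinates of hg38, through tables of genes and of gene starts. Shares carry Wilson intervals, their differences Newcombe intervals and pileups exact Poisson intervals, all at 95%. No p-value was computed.

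The sites and the 13 gene lists (268 genes, 267 of them found in the gene table as protein-coding) were chosen with earlier results of these data known. Named nearest genes were picked from the 12 strongest shared sites, not all of which are named, and the 12 strongest siNEG-only sites. Further sources were the 4 lowest and highest ratios at 50 reads or more, list members (up to 4 a list), genes with 3 sites and sites at the threshold. Others were chosen after their values were seen. The values of 1 gene are not reported here. Analyses used Python 3.11.15, SciPy 1.17.1 and pandas 2.3.3.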

Additional observations from a re-analysis of the deposited data

How the results depend on the processing

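Of 31 alternative values, 13 stayed within the 95% interval of the value reported and 18 moved outside it, none with a change of sign. For the retained share of 27.5%, a reciprocal overlap of 50% gave 14.3%, siEWS-FLI intervals with a −log10 q-value of 5 or more 15.5%, siNEG thresholds of 5 and 20 gave 17.3% and 37.2%, and leaving out small RNA sites 22.0%. The median ratio of 0.300 became 0.359 with a reciprocal overlap of 50%, 0.612 with deposited folds, 0.202 at 50 or more siNEG reads, 0.250 at a siNEG threshold of 20 and 0.268 without small RNA sites. The difference from gene ends, −24.6 points, was −18.3 weighted for strength, −11.8 with a reciprocal overlap of 50%, −32.2 at a siNEG threshold of 20 and −29.7 without small RNA sites. The difference from intervals inside genes was −5.44 points without small RNA sites, and that from intergenic intervals over 50 kb away 0.347 with a reciprocal overlap of 50%. The tRNA share of 84.4% was 40.6% with a reciprocal overlap of 50% and 59.4% with siEWS-FLI intervals at a −log10 q-value of 5 or more. The tRNA grouping and every setting without small RNA sites were chosen after seeing the data. Where an alternative moved a value by more than its construction explains, the cause was not tested. No paired analysis was possible because each group has 1 library, and for the same reason no replicate could be left out. The caller's threshold limits what can be said of the uncalled sites. At the siNEG local background, pileups of up to 3 to 24 reads, by site, would have stayed uncalled with siEWS-FLI. That limit was too high at some retained sites.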

Other observations

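The 3 strongest uncalled pairs of neighbouring sites, chosen after their values were seen, lay near CIROZ (130 and 64 siNEG reads), CEACAM6 (119 and 90) and KCNE4, a potassium channel subunit gene (60 and 39). Each pair spans under 5 kb, at 4.74, 3.50 and 1.89 kb, and none of the 6 sites was called with siEWS-FLI.

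By chromosome, 15 of 31 sites were retained on chromosome 11 and 15 of 38 on chromosome 17. None of 8 was retained on chromosome 20, none of 9 on chromosome 4 and none of 4 on chromosome 21. On chromosome 8 it was 1 of 19 and on chromosome 18 it was 1 of 8. The share over all 484 sites was 27.5%, and counts this small allow no statement on a chromosome. These chromosomes were chosen after their values were seen, and no test was made.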
